A study of Homo sapiens with 12 samples.

Results

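Of 166523 merged accessible regions, 579 (0.348%) had an ATAC-seq peak in all 4 libraries in which wild-type (WT) or Y537S estrogen receptor alpha (ER) was induced and in none of the other 8 libraries, among them all 4 of the K303R line. Peaks of the 12 libraries on chromosomes 1 to 22 and X were merged where they shared 1 bp or more, and the 579 regions were chosen by this presence and absence. The pattern itself is therefore how they were picked, and it is described here without a test. ATAC-seq reads out open chromatin as places where a transposase can cut DNA. The established breast cancer line MDA-MB-453 was used, carrying an inducible, ectopic copy of WT, Y537S or K303R ER, with 1 line per form; the labels do not state the promoter that drives the copy or whether a line is 1 clone. Each line was untreated, given 1 nM estradiol (E2), given 2 ug/mL doxycycline (Dox), which switches on the ectopic receptor, or given both, for 2 days in medium with serum (no hormone depletion is described). There was 1 library per form and treatment, so no value has a replicate, and the lists do not tell fewer cells with an open site from less opening per cell.

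ER is a nuclear receptor that binds DNA as a dimer, classically at estrogen response elements, and recruits coactivators that open nearby chromatin. In breast cells it works mostly at distal enhancers, together with factors such as FOXA1 and GATA3. Y537S changes a residue of the ligand-binding domain and is known for activity without hormone, whereas K303R lies at the border of the hinge and the ligand-binding domain. MDA-MB-453 itself is known as a luminal line that lacks ER.

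The few of these regions that reach a gene start can be shown by sequence. Of 34961 RefSeq promoter windows (GRCh38.p14, the assembly of hg38, 250 bases before to 50 after a gene start), 17 overlapped a region of the set, and 5 of those belonged to protein-coding genes (HK1, MICAL2, PADI4, NLRP3 and LCN12). The 250 bases upstream of the start are printed for the 8 windows whose regions had their summit, the point of highest signal, within these bases or up to 9 bases past the start. Capitals mark matches on either strand to AGGTCA, a single arm of the estrogen response element (ERE), or to TGANTCA, the AP-1 site.
PADI4 (chr1:17307947-17308196, plus strand): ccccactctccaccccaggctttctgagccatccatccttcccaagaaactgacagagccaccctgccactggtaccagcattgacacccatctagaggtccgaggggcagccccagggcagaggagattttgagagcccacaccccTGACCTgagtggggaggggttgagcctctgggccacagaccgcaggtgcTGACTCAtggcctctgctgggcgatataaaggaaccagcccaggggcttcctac
LCN12 (chr9:136952023-136952272, plus strand): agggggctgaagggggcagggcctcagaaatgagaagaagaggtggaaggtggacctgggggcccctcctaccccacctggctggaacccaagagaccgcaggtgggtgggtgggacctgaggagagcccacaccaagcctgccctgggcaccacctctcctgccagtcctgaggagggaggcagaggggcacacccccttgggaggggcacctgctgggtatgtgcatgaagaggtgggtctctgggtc
ARAP1-AS2 (chr11:72700224-72700473, plus strand): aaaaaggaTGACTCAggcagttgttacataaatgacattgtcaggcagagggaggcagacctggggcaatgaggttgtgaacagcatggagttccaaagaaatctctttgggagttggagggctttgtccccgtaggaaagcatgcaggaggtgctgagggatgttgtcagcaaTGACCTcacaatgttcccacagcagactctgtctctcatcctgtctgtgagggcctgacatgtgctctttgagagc
LOC105379156 (chr5:124796616-124796865, plus strand): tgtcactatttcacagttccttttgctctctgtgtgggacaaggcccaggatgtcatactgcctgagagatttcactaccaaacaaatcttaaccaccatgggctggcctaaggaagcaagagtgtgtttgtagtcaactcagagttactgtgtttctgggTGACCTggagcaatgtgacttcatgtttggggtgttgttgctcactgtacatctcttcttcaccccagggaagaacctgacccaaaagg
ATP2C2-AS1 (chr16:84467362-84467611, minus strand): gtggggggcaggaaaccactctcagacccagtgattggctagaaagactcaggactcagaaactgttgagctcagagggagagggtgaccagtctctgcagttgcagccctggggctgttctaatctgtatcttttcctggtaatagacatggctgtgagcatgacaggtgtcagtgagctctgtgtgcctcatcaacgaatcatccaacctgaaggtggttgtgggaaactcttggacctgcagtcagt
SMIM2-AS1 (chr13:44110299-44110548, plus strand): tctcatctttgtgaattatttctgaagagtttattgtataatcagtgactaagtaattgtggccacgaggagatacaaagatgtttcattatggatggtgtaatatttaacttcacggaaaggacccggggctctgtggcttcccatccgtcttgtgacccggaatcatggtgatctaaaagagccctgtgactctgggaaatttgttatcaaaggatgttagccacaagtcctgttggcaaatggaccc
LOC105370823 (chr15:53082590-53082839, plus strand): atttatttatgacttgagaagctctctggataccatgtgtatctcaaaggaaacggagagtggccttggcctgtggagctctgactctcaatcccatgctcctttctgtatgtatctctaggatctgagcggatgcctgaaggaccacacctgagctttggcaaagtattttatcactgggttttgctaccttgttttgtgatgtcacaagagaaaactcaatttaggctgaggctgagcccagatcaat
LOC100128770 (chr16:3032231-3032480, plus strand): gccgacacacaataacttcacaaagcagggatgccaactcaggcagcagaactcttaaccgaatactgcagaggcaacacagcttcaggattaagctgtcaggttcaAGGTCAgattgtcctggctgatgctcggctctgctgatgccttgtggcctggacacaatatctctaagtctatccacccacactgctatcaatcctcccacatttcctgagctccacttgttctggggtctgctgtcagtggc
PADI4 encodes an enzyme that converts arginine in histones to citrulline. Its window held both an AP-1 match and an ERE arm, and the region there (chr1:17307932-17308489, summit 90 bases upstream of the start) had summit pileups of 6, 5, 14 and 11 in WT Dox, WT Dox+E2, Y537S Dox and Y537S Dox+E2. The pileup is the number of reads or fragments stacked at the summit, recovered from the authors' fold enrichment. LCN12 encodes a lipocalin, and its region (chr9:136951702-136952996) had pileups of 4, 7, 8 and 6 in the same order. ARAP1-AS2, an antisense RNA gene with both kinds of match, had 7, 5, 21 and 30. LOC105379156, a long noncoding RNA gene with 1 ERE arm, had 6, 9, 22 and 27, and ATP2C2-AS1, with no match, had 7, 6, 16 and 13. Of 3 more noncoding RNA genes, SMIM2-AS1 had 6, 4, 10 and 15, LOC105370823 had 4, 6, 7 and 8, and LOC100128770, with 1 ERE arm, had 4, 4, 10 and 13. In these 8 windows the Y537S pileups reached 6 to 30 and the WT pileups 4 to 9, before any scaling between libraries. Over all 17 windows, 6 held an ERE arm in the 250 upstream bases, against 12.04% of all windows, and 6 held an AP-1 match, against 6.54%. None of the 17 held a full ERE, searched as GGTCA followed by any 3 bases and TGACC, which can overlap the arm and was found in 14 of all windows (0.0400%). The forkhead letters TGTTTAC (FOXA factors) were in none of the 17 and in 2.98% of all windows. The variant TGTTTGC was in none and in 3.22%. The GATA letters AGATAA were in none and in 9.18%. Some of the 17 windows overlap each other or only touch a region at its edge, so these counts are descriptions. The AP-1 match of HK1 lay outside the region. The overlapping windows of the noncoding RNA genes LOC105376517 and LOC124902610 hold the same AP-1 match, which begins at the last base of the region. Sequence away from gene starts, where most of the 579 regions lie, was not analysed here.

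The 12 lists held 39522 to 133963 summits, with the most in Y537S, and the background pileup, which scales with depth, ranged from 0.143 to 0.442. Peak names carried 3 tags: 1 for all Y537S libraries, 1 for all K303R libraries and for WT untreated and WT E2, and 1 for WT Dox and WT Dox+E2. If the tags mark separate runs, then Dox and run cannot be told apart in WT, nor form and run between WT and either mutant with Dox, while the Dox comparison in Y537S lay within 1 tag. Peaks lay within 1 kb of an end of 6 luminal apocrine markers in all 12 libraries, and of none of the basal markers KRT5, KRT14 and TP63 in any. Of blood and fibroblast markers, PDGFRB had none, PTPRC and CD3E had a peak in 4 libraries each, and COL1A1 in 11.

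The 579 regions were weak. In WT Dox their summit pileups ran from 4 to 14 with a median of 6, and in WT Dox+E2 from 4 to 21 with a median of 7. In Y537S Dox they ran from 4 to 61 and in Y537S Dox+E2 from 4 to 70, with a median of 14 in both. The lowest pileup listed anywhere in these 4 libraries was 4, and 75 of the regions sat at it in WT Dox, 43 in WT Dox+E2, 6 in Y537S Dox and 5 in Y537S Dox+E2. By comparison, the 2165 regions gained with Dox in all 3 forms (in each form a peak with Dox and with Dox+E2, and none without Dox) had medians of 9, 10, 23 and 23 in the same 4 libraries. To set libraries side by side, each pileup was divided by the library's median over the 16630 regions open in all 12. On this scale the medians of the 579 regions were 0.353 in WT Dox, 0.538 in WT Dox+E2 and 0.583 in each Y537S library with Dox. Y537S without added E2 and Y537S with E2 thus lay at the same median, and WT came near it in the library with E2. All 4 libraries overlapped widely. The closeness of WT depended on the scale. Averaged over both treatments, the median log2 ratio of Y537S over WT was 0.44 here and 0.93 with the library background as the scale.

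**Figure D1:**
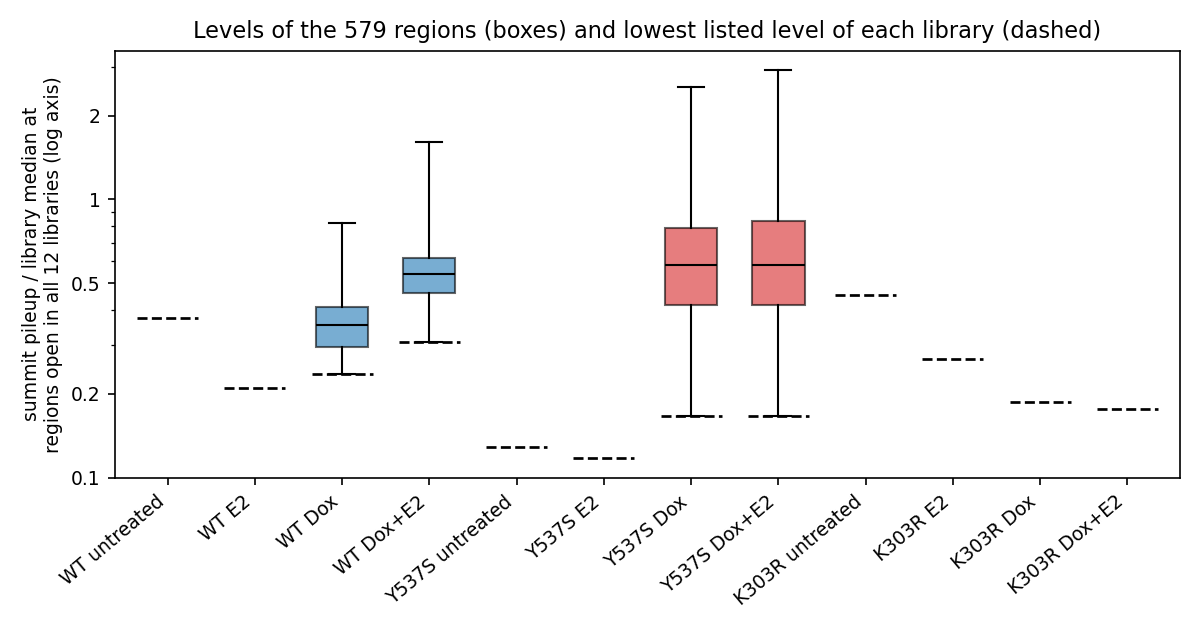
Boxes show the 579 regions in the 4 libraries with a peak (median, quartiles, whiskers to the lowest and highest region), as summit pileup over the library's median at always-open regions on a log axis, and dashed lines show the lowest level listed in each of the 12 libraries. The line of WT untreated, at 0.375, lies above the WT Dox median of 0.353, while the lines of the Y537S libraries without Dox lie at 0.118 and 0.129.

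A region without a peak is known only to lie below what the caller listed, so the lowest listed level was taken as a detection level. The shortest listed peak was 150 bp, so narrower sites may have reached this level unlisted, and the bounds drawn from it are approximate. In Y537S the gap was wide: the Dox library stood a median of 4.52-fold above the detection level of untreated Y537S, and 535 of the 579 regions (92.4%) cleared it by 2-fold. Y537S Dox+E2 cleared that of Y537S E2 by 2-fold in 561. In WT the gap was narrow. WT Dox+E2 cleared the detection level of WT E2 by 2-fold in 436 regions, with a median of 2.56-fold. The untreated WT library, the one with the lowest background pileup (0.143), could show little: WT Dox exceeded its detection level in 235 regions and cleared it by 2-fold in 10. For most of the 579 regions, the WT signal without Dox is thus bounded below the Dox signal by the pair with E2 only. Leaving the untreated WT library out of the rule changed the count by 1, to 580.

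Near misses of the rule came mostly from WT and K303R with Dox. Leaving out WT Dox added 2404 regions and leaving out WT Dox+E2 added 728, while the Y537S libraries with Dox added 27 and 28. On the K303R side, WT and Y537S together gained 4758 regions with Dox (2.86% of all, against 4.14% gained in WT, 18.2% in Y537S and 8.54% in K303R). Of these, 2165 (45.5%, exact 95% interval 44.1 to 46.9%) were gained in K303R as well and 579 (12.2%, 11.3 to 13.1%) had no K303R peak. A further 1705 (35.8%) had a K303R peak in Dox+E2 alone, while 202 (4.25%) had one in Dox alone. The regions with a K303R peak in Dox+E2 alone had K303R pileups of 3 to 22 there with a median of 6, and 107 of them were at 3, the lowest listed in that library. Without the K303R Dox+E2 library the rule would have taken 2284 regions, and without K303R Dox 781. The converse sets were smaller: of the 166523 merged regions, 306 had a peak in the Dox libraries of Y537S and K303R and in no other, and 61 in those of WT and K303R. Their shares of the regions gained in each pair were not computed. The 61 also had to lack a peak in every Y537S library, and these had the longest lists (106291 to 133963 summits). The part of list length in these counts was not tested.

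The share without a K303R peak was lower at higher WT signal. Where the lower of both WT pileups with Dox was 4, 111 of 453 regions (24.5%, exact 95% interval 20.6 to 28.7%) lacked a K303R peak. It was 12.9% of 1725 at pileups of 6 to 7 and 1.84% of 708 at 10 to 14. At 15 or more, 0 of 195 lacked one, which allows a share of up to 1.54% by a floor of 3 counts (the exact interval reaches 1.87%), and 88.2% of those were gained in K303R. These intervals cover counting error over regions only. Absence of a K303R peak was thus found at weak WT sites. None of the 195 of these 4758 regions with a WT pileup of 15 or more in both Dox libraries lacked a K303R peak.

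**Figure D2:**
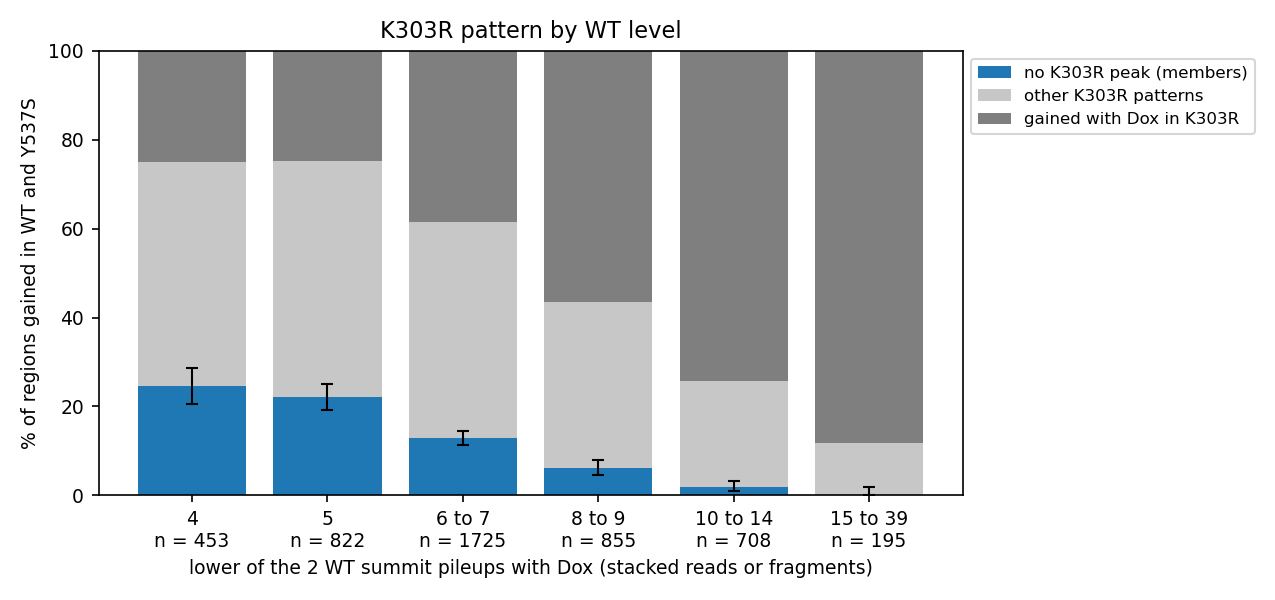
Bars split the 4758 regions gained in WT and Y537S by the lower of their 2 WT summit pileups with Dox and show, in percent, those with no K303R peak (the 579 regions, with exact 95% intervals), those gained in K303R and the rest. The share with no K303R peak goes from 24.5% at a pileup of 4 to 0 of 195 at 15 or more.

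For K303R itself only approximate upper bounds can be given. With the scaling on always-open regions, the detection level put the log2 ratio of K303R over WT under a median of -0.91 with Dox (range -2.13 to -0.33) and of -1.61 with Dox+E2 (range -3.19 to -0.80). With the library background as the scale, chosen for this value after seeing the data, the median bounds were -0.22 and -0.83. In the 2165 regions gained in all forms, where K303R was measured, its median log2 ratio to WT was -0.59 with Dox and -0.90 with Dox+E2. Over the background these were 0.10 and -0.12, so the direction with Dox turned with the scale. For 73 of the 579 regions (12.6%) the Dox bound lay among the 10% lowest of those ratios on the first scale (under -1.40). For 205 (35.4%) the Dox+E2 bound did (under -1.71). The 2165 regions had to hold a K303R peak, so their ratios are cut at the same detection level that sets the bounds. These counts therefore cannot show whether K303R was lower in the 579. In 224 regions (38.7%, 34.7 to 42.8%) WT cleared the K303R detection level by 2-fold in both treatments. That share was 2.42% when pileups were divided by the library background instead, 92.6% with Dox+E2 alone, and 76.96% when peaks had to cover at least 50% of the region. It was 4.77% at a −log10 q of 5 or more, 1.60% at 10 or more and 1.78% with lists of equal length. K303R Dox and Dox+E2 had 76.3 and 88.6 times their background at always-open regions, against 47.1 and 51.5 in the WT libraries, so the choice of scale changes this share. On the scale of always-open regions, only 3 regions stood 2-fold above every matched detection level (each form without Dox, and K303R with Dox). They lay inside CDH23, ZNF804B and KCNQ3 and were singled out after their values were seen. How many would do so over the background was not computed.

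Which regions qualify depended on the peak threshold far more than their number did. With peaks of −log10 q of 5 or more 754 regions met the rule, and 175 of the 579 overlapped them. At 10 or more 312 met it, and 6 of the 579 overlapped them. With the 39522 strongest peaks of every library 506 met it, and 11 of the 579 overlapped them. Peaks covering at least 50% of a region gave 573, overlapped by 134. Of the 312 regions at the stricter threshold, 306 (98.1%) had a weaker K303R peak with Dox in the complete lists, and 57 (18.3%) had a weaker peak in some library without Dox. With windows of 0.5 kb around summits in place of whole peaks, 515 of the 579 were kept.

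The rule asked for a peak with and without E2, but not for equal signal. In WT, Dox+E2 stood above Dox by a median log2 ratio of 0.56 over the 579 regions, against 0.16 over the 33196 regions open in both libraries. It was also 0.56 over the 2165 regions gained in all forms, so the value was not particular to the 579. The gap to all regions open in both varied with the higher of the 2 WT pileups. Where the higher WT pileup was 4 to 6, both medians were 0.39 (173 of the 579). At 7 to 8 they were 0.58 and 0.39 (215 of the 579). At 9 to 12 they were 0.75 and 0.22 (160), and at 13 to 21 they were 1.28 and 0.08 (31). These groups use the same 2 pileups that make up the ratio, and few of the 579 were high in both WT libraries. The widening gap is thus set in part by the grouping and the rule, and no conclusion is drawn from it. Regions gained in all forms were not grouped in this way. On this scale 109 regions (18.8%) were 2-fold or more above Dox with E2 and 2 were 2-fold or more below, where 8.41% and 2.68% of all regions open in both were. Before scaling the difference was small: the pileup was higher with E2 in 298 regions, equal in 97 and lower in 184, and equal pileups correspond to 0.39 on the log2 scale. In Y537S the median log2 ratio was 0.00, with 23 regions (3.97%) 2-fold above and 14 (2.42%) 2-fold below, against 2.73% and 2.51% of the 74514 regions open in both libraries. The difference between the forms was not tested, since each value rests on 1 pair of libraries. The median in WT was 0.34, 0.28 and 0.29 with a −log10 q of at least 5, at least 10, and lists of equal length.

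**Figure D3:**
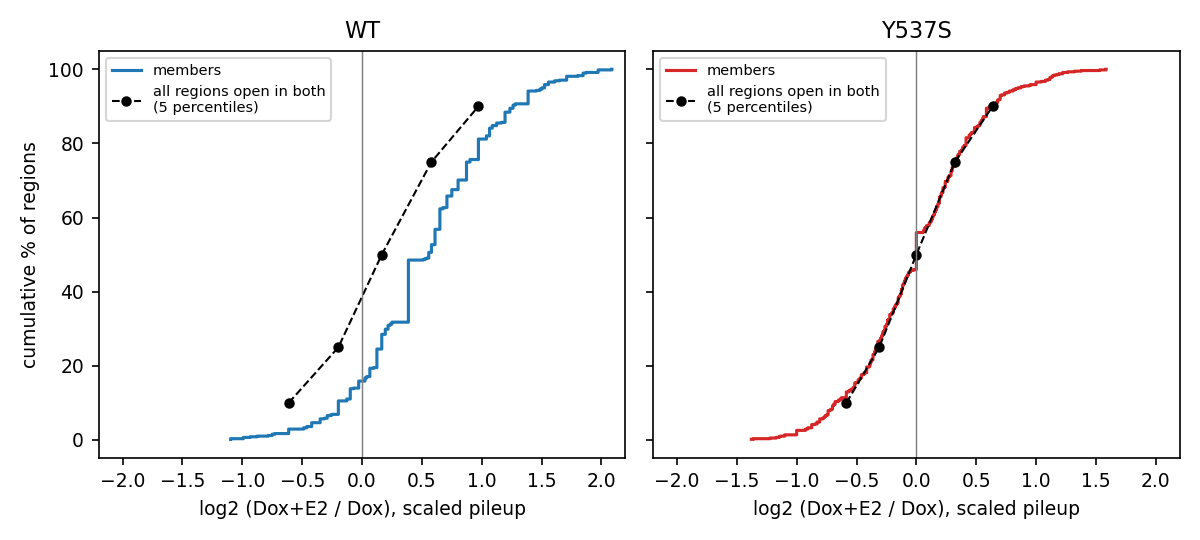
Lines give the cumulative percent of the 579 regions against the log2 ratio of scaled summit pileup, Dox+E2 over Dox, in WT (left) and Y537S (right), and points give 5 percentiles of all regions open in both libraries. The WT line lies to the right of the points, with medians of 0.56 and 0.16, and the Y537S line lies on them, with medians of 0.00.

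Because the highest WT Dox pileup was 14, every region with a WT pileup of 15 or more had it in Dox+E2, and 8 regions did. The highest E2 ratio among them was inside CAMK2A, a calcium-dependent kinase gene (chr5:150261818-150262409), with pileups of 5 and 15 in WT Dox and WT Dox+E2 and of 19 and 21 in Y537S. A region 38.8 kb from BRD1, which encodes a bromodomain protein of histone acetyltransferase complexes (chr22:49733748-49735031), had 6 and 16, and 25 and 29. A region within the span given for RRM2, a ribonucleotide reductase subunit gene (chr2:10170186-10170878), had 6 and 15, and 15 and 12. These 3 were picked for their WT ratio, so its size in WT is a description. Their Y537S pileups with and without E2 differed by 2 to 4. The lowest ratios of the 8 belonged to regions 52.3 kb from GPR37L1 (8 and 16, then 22 and 16), 43.9 kb from LRFN2 (8 and 16, then 11 and 13) and inside TLN2 (10 and 21, then 14 and 11).

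Y537S exceeded WT more without E2 than with it, in libraries whose peak names carry different tags, so that form and run cannot be told apart if the tags mark runs. With Dox alone the median log2 ratio of Y537S over WT was 0.67, and 213 regions (36.8%) were 2-fold or more higher in Y537S, against 12.7% of the 42825 regions open in both. With Dox+E2 the median was 0.12 and 66 regions (11.4%) were, against 7.13% of 39761. Averaging both log2 ratios within each region gave a median of 0.44 over regions, and 0.93 with the background as the scale. Regions gained in all forms gave 0.82 and 0.20, so they moved in the same way. Across the 579 regions the Y537S pileups with Dox and with Dox+E2 ranked alike (Spearman's rho 0.76 across regions, which share 2 libraries and are no replicates).

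The strongest of the 579, ranked by the smallest −log10 q over the 4 libraries, reached 11.3. A region inside COL7A1, the gene of type VII collagen, which anchors epithelia to the stroma (chr3:48586285-48586927), had pileups of 11, 11, 31 and 28 in WT Dox, WT Dox+E2, Y537S Dox and Y537S Dox+E2. One 1.48 kb from CLEC16A, a gene of mitochondrial quality control (chr16:11183083-11184178), had 11, 11, 15 and 18. One 18.7 kb from MED10, which encodes a Mediator subunit (chr5:6396693-6397604), had 11, 10, 18 and 14. In all 3 the WT pileups agreed to within 1, and the unscaled Y537S pileups were higher. Scaled on always-open regions, COL7A1 had 0.65 and 0.85 in WT Dox and Dox+E2, against 1.29 and 1.17 in Y537S. CLEC16A had 0.65 and 0.85 against 0.625 and 0.75, so Y537S was lower there. MED10 had 0.65 and 0.77 against 0.75 and 0.58, so Y537S was higher without E2 only. Inside CR1L, a relative of complement receptor 1 (chr1:207712644-207713108), the values were 11, 10, 20 and 12. At 74.3 kb from ZNF678, a zinc finger gene (chr1:227489068-227489506), they were 11, 12, 24 and 25. At 1.36 kb from NUDT14, a sugar nucleotide hydrolase gene (chr14:105182068-105182839), they were 11, 10, 13 and 13. Of these 3 the ZNF678 region was the highest in both Y537S libraries, while the WT pileups were alike. Inside TLN2, which encodes the adhesion protein talin 2 (chr15:62633063-62633443), WT went from 10 to 21 and Y537S had 14 and 11. Inside PGS1, a gene of cardiolipin synthesis (chr17:78414755-78415351), the values were 10, 11, 13 and 16. Inside UPP2, a uridine phosphorylase gene (chr2:158131494-158131838), they were 10, 10, 17 and 25. CDH23, a cadherin gene of hair cell tip links, completed the 10 with a region (chr10:71434062-71434475) at 14, 9, 19 and 23. The TLN2 region stood out in WT Dox+E2, where its 21 was the highest of all 579. Strength in Y537S followed another order: the highest value there, 70 in Dox+E2, belonged to a region of chromosome 5 with no protein-coding gene end within 100 kb (chr5:113764986-113765695; 5, 9, 31 and 70), picked here after its values were seen.

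Most of the 579 regions lay away from gene ends. Of them, 20 (3.45%, exact 95% interval 2.12 to 5.28%) had a summit within 1 kb of an end of a protein-coding gene, against 3.09% of the regions gained in all forms (2.41 to 3.91%), 10.9% of all regions and 41.8% of those open in all 12 libraries. The summit lay inside a protein-coding gene in 293 (50.6%, 46.5 to 54.8%), close to the 52.4% of all regions. For the 562 regions off chromosome 8, whose gene starts were not used here, the median distance to the nearest protein-coding start was 50.7 kb, and it was 47.0 kb for regions gained in all forms and 6.69 kb for always-open regions. The intervals of the 579 and of the regions gained in all forms overlap for both shares. The regions had a median width of 510 bp, against 717 bp for regions gained in all forms and 315 bp for all regions. The strongest summits of the 4 libraries lay a median of 139 bp apart at the farthest, and within 100 bp in 195 regions (33.7%). The Y537S libraries agreed most closely, with a median of 44 bp, against 66 bp between the WT libraries.

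Peaks of other libraries were also counted near the 579 regions. A peak of at least 1 of the 8 other libraries lay within 1 kb of 168 regions (29.0%). Such peaks were most often of K303R Dox+E2 (134 regions) and K303R Dox (103). They were least often of WT untreated and K303R untreated (31 each). This share was not computed for all regions or for those gained in all forms, so it is a description only. A region gained in all forms lay within 10 kb of 58 (10.0%), against 4.28% of all other regions, and one gained in Y537S but not WT within 10 kb of 276 (47.7%, against 26.9%). Few lay near each other: 24 were within 10 kb of another of the 579, and the median distance was 978 kb. Chromosome 1 held the most (75), and chromosome 15 had the highest number per 1000 merged regions (6.22), ahead of chromosome 22 (5.04), while chromosomes 13 and 12 had the lowest (1.85 and 1.96).

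Estrogen response genes often had one of these regions within 50 kb of their span. That held for 10 of the 50 listed genes, against 873 of 19974 protein-coding genes (4.37%). The listed genes had a median of 21 merged regions of any kind in that window and all genes 12, and the part of that in the counts was not tested. A single region accounted for 4 of the 10: chr21:42350952-42351454, which covers an end of the TFF2 span and lies 10.8 kb from TFF1, 20.4 kb from TMPRSS3 and 35.5 kb from TFF3. TFF1, TFF2 and TFF3 encode trefoil peptides of mucus, and TFF1 is a classic ER target. Its pileups were 6, 7, 24 and 18 in WT Dox, WT Dox+E2, Y537S Dox and Y537S Dox+E2. Inside CA12, a carbonic anhydrase gene induced by estrogen, a region (chr15:63373785-63374836) had 5, 7, 18 and 18. In both loci the unscaled Y537S pileups were above those of WT. The library medians at always-open regions were 24 in both Y537S libraries with Dox and 17 and 13 in WT Dox and WT Dox+E2. Scaling by them narrows these gaps. Inside PGR, the progesterone receptor gene, a region (chr11:101030968-101031266) had 6, 5, 7 and 6, so the 4 unscaled pileups differed by at most 2. Once scaled, Y537S lay below WT there.

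The other estrogen response genes had regions at some distance or at low signal. CTSD, which encodes the protease cathepsin D, had 2 regions, 2.40 kb (chr11:1749839-1750356, pileups 5, 5, 12 and 6) and 14.2 kb away (chr11:1778116-1778622, pileups 6, 4, 5 and 8). A region 45.2 kb from KCNK5, a potassium channel gene, had 5, 8, 12 and 7. One 17.7 kb from FKBP4, an immunophilin gene of steroid receptor complexes, had 5, 6, 4 and 10. Inside HSPB8, a small heat shock protein gene, the values were 10, 4, 6 and 8, with WT Dox the highest of the 4 libraries. No value of these regions exceeded 12. For comparison, 19 of the 50 genes had a region gained in all forms within 50 kb, against 2693 of all genes (13.5%). Counts of list genes were 8 at a −log10 q of 5 or more, 4 at 10 or more and 6 with lists of equal length.

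Nuclear receptor genes came next, with 6 of 31 (19.4%, with a median of 26 merged regions per gene). Besides PGR they were ESR1, RXRA, PPARA, NR2F2 and NR2F6. RXRA, the common partner of many nuclear receptors, had 2 regions inside its span (chr9:134394391-134396067 with 6, 7, 21 and 22, and chr9:134376271-134376762 with 6, 5, 14 and 13). A region 2.13 kb from NR2F6, an orphan receptor gene (chr19:17248052-17248911), had 7, 15, 19 and 24. Its log2 ratio of Dox+E2 over Dox in WT was 1.49, against the median of 0.56. The ESR1 region (chr6:151944227-151944575) had 6, 6, 7 and 9. ESR1 is the gene of ER, so reads of an ectopic ER coding sequence would align within its span, and their part in this region was not tested.

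Of the Wnt ligand genes 3 of 19 (15.8%) had a region: WNT9A inside its span (chr1:227927272-227928523, pileups 8, 8, 19 and 29), WNT3A and WNT4. A region 4.29 kb from PELP1, an ER coactivator gene (chr17:4665073-4665485), had 4, 6, 13 and 11. Of 16 androgen response genes 2 did, PMEPA1, a regulator of TGF-beta signalling with 2 regions, and TSC22D3, a glucocorticoid-induced gene. None of 15 luminal transcription factor genes and none of 23 housekeeping genes had one, against 4.37% of all genes. In these lists 3 and 6 genes had a region gained in all forms, against 13.5% of all genes. The remaining lists had 1 gene each: JUND of 23 immediate early genes, NTRK2 of 27 receptor tyrosine kinases, IRF9 of 20 interferon-stimulated genes, CDH3 of 13 basal genes and COL1A1 of 14 blood and stromal genes. The IRF9 region (chr14:24176269-24177249) overlaps REC8 and lies 9.70 kb from IRF9, the gene of an interferon signalling factor. It had pileups of 4, 10, 33 and 32, among the widest gaps between forms named here. The COL1A1 region (chr17:50135442-50136568) lay inside PPP1R9B, 47.5 kb from COL1A1. It had 8, 9, 33 and 26, so Y537S was again above WT. These shares of 3.70% to 7.69% lie near the 4.37% of all genes. With 0 to 3 genes per list, most of these counts cannot be told from each other.

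**Figure D4:**
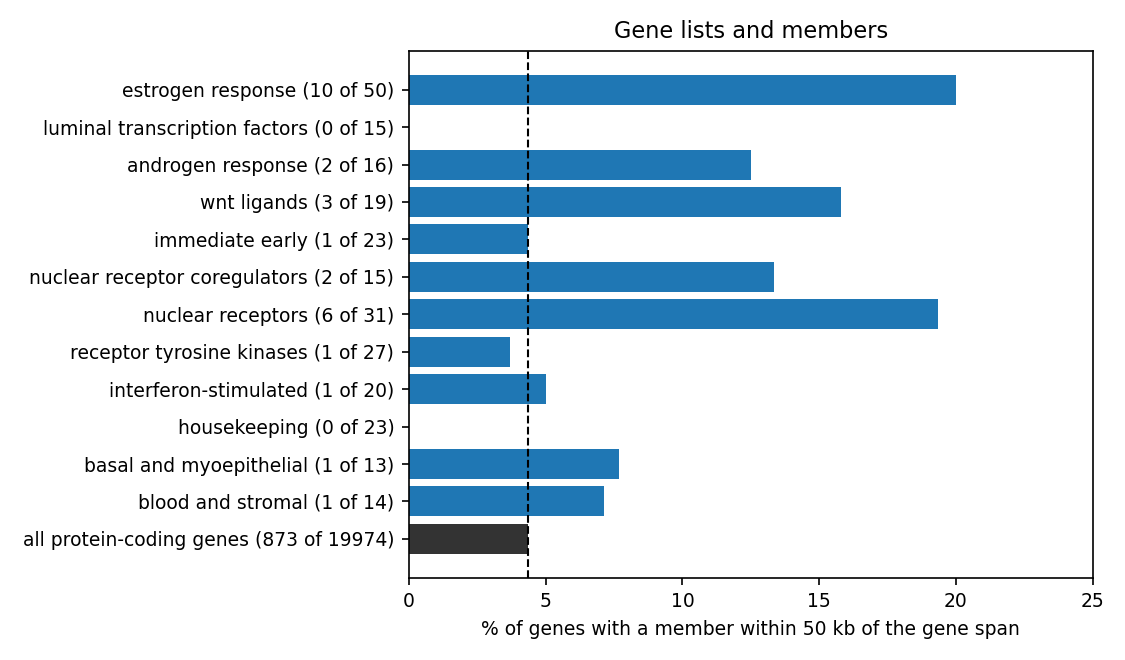
Bars give, for each list, the percent of genes with at least 1 of the 579 regions within 50 kb of the gene span, with the counts beside the names, and the dashed line marks all protein-coding genes (4.37%). Estrogen response (10 of 50) and nuclear receptor genes (6 of 31) have the longest bars, and luminal transcription factor and housekeeping genes have none.

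PEMT and WNT4 had the most regions, with 3 each within 50 kb, and 58 further genes had 2. PEMT encodes an enzyme of phosphatidylcholine synthesis that is known to be induced by estrogen in liver cells. Its 3 regions overlapped the gene span (chr17:17504971-17505803 with 7, 6, 12 and 8, chr17:17579721-17580312 with 7, 8, 20 and 16, and chr17:17589985-17590355 with 5, 9, 14 and 18), among 47 merged regions there. WNT4 encodes a Wnt ligand of mammary branching. Of its 3 regions among 13, 2 are neighbours about 29 kb away (chr1:22172171-22172699 with 6, 9, 8 and 6, and chr1:22172927-22173312 with 6, 10, 13 and 15), and the third lies 5.12 kb away (chr1:22111678-22112191) with 4, 6, 18 and 12. In all 3 WNT4 regions the WT pileup was higher with E2. UPP2, ZNF804B and CDH23 followed with 2 regions each, all inside their spans. The second UPP2 region (chr2:158044155-158044883) had 8, 10, 22 and 26, the second ZNF804B region (chr7:89123879-89124273) 10, 7, 26 and 20, and the second CDH23 region (chr10:71617010-71617514) 6, 9, 11 and 13. CDH23 has 95 merged regions within 50 kb of its span, against a median of 12 per gene.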

How the data were processed

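ATAC-seq peaks of 12 libraries (1 per ER form and treatment) were used as deposited, in hg38 coordinates. Per the submitters' processing notes the tools were FastQC, Bowtie2, SAMtools, Picard and MACS2; versions, settings and any shift of reads are not given in the labels used here. The 54 to 114 summits per library outside chromosomes 1 to 22 and X were not used. Each deposited line is 1 summit of 1 library, with the authors' score (10 times the −log10 q), fold enrichment, −log10 p and −log10 q. The deposited fold enrichment is a ratio of pileup plus 1 to background plus 1, so pileups were recovered from its steps, whole to within 0.000721. They were scaled by the library median over regions open in all 12 libraries, so a change shared by those regions would not be seen.

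Intervals of shares are exact (Clopper-Pearson, 95%) and cover counting error only. Gene spans and starts came from RefSeq (GRCh38.p14). The 12 gene lists were matched in full, 4 genes through older symbols. Named regions are the 10 strongest by smallest −log10 q, the 5 genes with the most regions, list genes, promoter overlaps, and the 3 highest and 3 lowest E2 ratios at a WT pileup of 15 or more. The rule, lists and settings were chosen with earlier results of these data known. The strongest regions with −log10 q at or above 10 were added after seeing the data. The counting was tested on simulated data. Values of a few listed genes are not reported here. Python 3.11.15, numpy 2.4.6, pandas 2.3.3 and scipy 1.17.1 were used.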

Additional observations from a re-analysis of the deposited data

How the results depend on the processing

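The number of regions was 506 to 754 with 0.5 kb summit windows, 50% coverage, equal list length or a −log10 q of at least 5, and 312 with −log10 q at or above 10. Leaving out 1 library gave 580 to 2983, with 2983 without WT Dox, 2284 without K303R Dox+E2 and 1307 without WT Dox+E2. The share near gene ends stayed between 2.93% and 4.13% when a library was left out, and was 7.60% at a distance of 2.5 kb. The share inside genes was 55.1% with 50% coverage, and 50.4% to 55.0% with a library left out, the highest without K303R Dox+E2. Estrogen response genes numbered 4 with −log10 q at or above 10 and 6 with equal lists, and 10 to 18 with a library left out (17 without WT Dox, 18 without K303R Dox+E2). The E2 ratio in WT (log2) was 0.34, 0.28 and 0.29 at a −log10 q of at least 5, at least 10 and with equal lists, and 0.68 over the background. In Y537S it was -0.059 with summit windows, -0.038 with 50% coverage and -0.14 over the background. The Y537S to WT ratio was 0.30 at a −log10 q of at least 5 and at least 10, and 0.93 over the background. Over the background, K303R to WT ratios of regions gained in all forms were 0.10 with Dox (a turned direction) and -0.12 with Dox+E2, and the bounds for the 579 regions -0.22 and -0.83, tried after seeing the data. The share of regions 2-fold above the K303R detection level was 4.77%, 1.60%, 1.78%, 76.96%, 2.42% and 92.6% at a −log10 q of at least 5, at least 10, with equal lists, with 50% coverage, over the background and with Dox+E2 alone. The share with another library's peak within 1 kb was 19.9%, 17.0% and 13.04% at a −log10 q of at least 5, at least 10 and with equal lists, 83.1% with 50% coverage, where weaker peaks no longer count as open, and 57.5% at 5 kb. The cause was not tested for the others. No paired analysis was possible because each group holds 1 library and the labels give no replicate numbers.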

Other observations

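With −log10 q at or above 10 the rule selects other regions. Their peaks pass this threshold with Dox in WT and Y537S, while any K303R peak falls below it. In 5 of the 312 (1.60%), WT stood 2-fold above the lowest K303R level at this threshold in both treatments. The regions named next are the strongest and do not stand for all 312. The strongest of these 312, named by the same ranking after the data were seen, lay on chromosome 17 with no protein-coding gene end within 100 kb (chr17:83194930-83196111). With Dox and Dox+E2 it had pileups of 29 and 32 in WT, of 36 and 24 in Y537S and of 8 in either K303R library. The next lay inside RMDN3, a gene of contacts between mitochondria and endoplasmic reticulum (chr15:40743311-40744904), with 23 in either WT library, 34 in either Y537S library and then 8 and 7 in K303R. A region 6.05 kb from KPNA2, which encodes a nuclear import receptor (chr17:68029464-68029988), had 22 and 24 (WT), 52 and 45 (Y537S) and 7 and 8 (K303R), with no listed peak in any library without Dox. A region on chromosome 6, 299 kb from the nearest protein-coding gene end (chr6:19537941-19538608), had 20 and 22 (WT), 38 and 44 (Y537S) and in K303R a peak in Dox+E2 alone, at 6. A region 0.904 kb from MCPH1, a gene of chromosome condensation (chr8:6648782-6649672), had 22 and 18 (WT), 42 and 50 (Y537S) and 6 and 7 (K303R), also with none without Dox. The other 3 did have listed peaks without Dox: the chromosome 17 region listed first had 4 in Y537S untreated and 5 in K303R untreated, the RMDN3 region 8 in Y537S E2 and the chromosome 6 region 4 in Y537S untreated. In 4 of these 5 K303R had a listed peak in both Dox libraries, so the complete lists show a lower pileup there and not its absence. Of the miRNA hairpins of RefSeq, 1 (MIR4426) lay within 1 kb of one of the 579 regions.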
